A study of Homo sapiens with 4 samples.

Results

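Nuclear receptors are ligand-regulated or constitutively active transcription factors that share a zinc-finger DNA-binding domain. The 46 genes described here cover receptors for steroids, retinoids, thyroid hormone and vitamin D, lipid and xenobiotic sensors, and orphan receptors, whose ligands are unknown or disputed. Members were taken by exact gene symbol from a fixed list, which was chosen with earlier results of these data known. Where several probe sets named a gene, the one brightest on average across the 4 arrays stood for it. Of the 46 genes, 39 had a probe set that names them alone, out of 17958 genes so represented. The other 7 (NR1H2, NR1H4, NR1I2, NR1D1, HNF4A, NR2F2 and NR0B1) were not analysed here.

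The samples were 2 arrays of HCT116 cells exposed for 72 hours to 1 µM 5-aza-2'-deoxycytidine (called 5aza, as in the sample titles) and 2 arrays of HCT116 cells given vehicle. HCT116 is an established human colorectal carcinoma cell line, and 5aza is a cytosine analog that traps DNA methyltransferases and so lowers DNA methylation as cells divide. The first dose was given 24 hours after seeding and was repeated 48 hours later. The labels do not say whether the numbered arrays came from separate cultures, so the p-values measure the spread between these arrays, which may be technical. With 2 arrays a group, an exact two-sided permutation test of a single gene cannot give a p below 0.333, and in these bulk samples fewer cells of a type and less RNA per cell cannot be told apart.

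Steroid receptors bind DNA mostly as homodimers, whereas retinoic acid, thyroid hormone, vitamin D and lipid-sensing receptors mostly pair with a retinoid X receptor. In colonic epithelium the family is known for links to differentiation, lipid metabolism and bile acid handling. Promoter methylation of ESR1 and of RARB has been described in colorectal tumours.

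All values are levels on the authors' log2 RMA scale, where a difference of 1 is a 2-fold change, and levels of different genes are not set against each other because each probe set responds in its own way. A gene was called as rising or falling at a limma adjusted p under 0.05 over all 17958 genes. Pearson's correlation across the 33297 probe sets was 0.992 between the 5aza arrays, 0.995 between the vehicle arrays and at most 0.971 between groups. Of 12 epithelial markers 2 rose and 4 fell, where 12.4% of all genes rose and 15.6% fell. EPCAM, one that fell (log2 fold change -0.72, limma adjusted p = 0.00495), was at 11.14 and 11.04 on the 5aza arrays and at 11.79 and 11.82 on the vehicle arrays. CLDN4, ELF3 and CLDN7 also fell (-0.92, -0.99 and -0.46), and KRT18 and CDX2 rose (0.44 and 0.70). KRT8 lay between 12.99 and 13.24 on all 4 arrays, while the markers TSPAN8, VIL1 and CDX1 lay between 3.31 and 5.81. Among markers of other cell types, 4 of 10 for fibroblasts, 3 of 10 for endothelium and 4 of 10 for leukocytes rose. In the same lists 0, 1 and 0 fell. The shares of all genes were again 12.4% rising and 15.6% falling. The mean log2 level over these lists was 4.95 and 5.00 (fibroblast), 5.02 and 4.89 (endothelial) and 4.85 and 4.82 (leukocyte) on the 5aza arrays, against 4.29 and 4.26, 4.35 and 4.49, and 4.21 and 4.37 on the vehicle arrays. The rises were of THY1, COL6A3, COL1A1 and PDGFRA in fibroblast markers (3.15, 2.64, 0.63 and 0.53), of ENG, PECAM1 and TIE1 in endothelial markers (2.53, 1.79 and 0.93) and of CD3D, CSF1R, CD14 and CD3E in leukocyte markers (1.79, 1.50, 1.18 and 0.92), and the fall was of KDR (-0.55). The other markers of these 3 lists were not called, among them PTPRC, CDH5 and COL1A2, which lay between 2.93 and 4.87 on every array. The part of these markers in the receptor changes was not tested.

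Of the 39 receptor genes, 7 rose and 6 fell, led by the steroidogenic factor gene NR5A1, the immediate-early orphan receptor gene NR4A3 and the oestrogen receptor gene ESR1, and at the other end by NR2F1, a COUP family repressor. The share called was 33.3%, against 28.0% of all genes. Rises made up 17.9% of the receptors and 12.4% of all genes, and falls 15.4% of the receptors and 15.6% of all genes, so the family's shares lay near the background. Called changes of at least 2-fold were 3 rises and 1 fall among the 39 receptors, where 5.05% of all genes rose and 2.62% fell by as much, 7.67% in either direction. For 31 receptors the 5aza and vehicle levels lay apart with no overlap (79.5%, against 65.8% of all genes). The median log2 fold change was -0.12 in the receptors and -0.07 over all genes. Leaving out vehicle replicate 1 gave 4 receptor rises with 4 falls; leaving out vehicle replicate 2 gave 4 with 3.

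**Figure D1:**
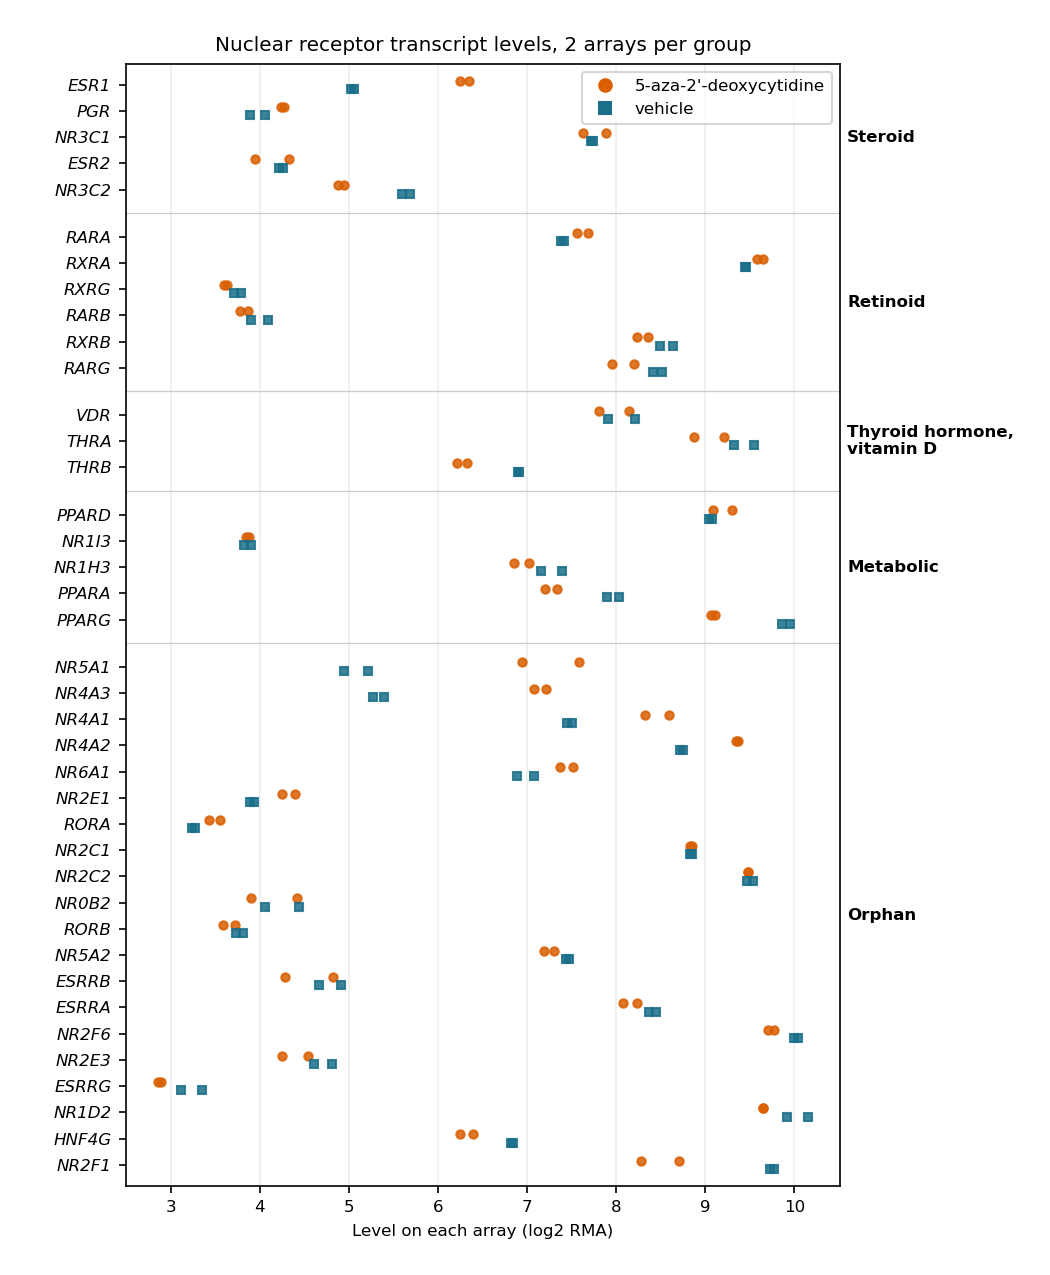
Level of each of the 39 nuclear receptor genes (log2 RMA, horizontal axis) on each array, with 5aza arrays as circles and vehicle arrays as squares, grouped by receptor class and ordered by fold change within a class. NR5A1, NR4A3, NR4A1 and ESR1 lie clearly to the right on the 5aza arrays and NR2F1 to the left, while most other genes shift by less than 0.5.

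By class, most calls were of orphan receptors, the largest class. The share called was 40% in the orphan, steroid and metabolic classes alike, against 28.0% of all genes. It was 33.3% in the thyroid hormone and vitamin D class and 0% in the retinoid class. The steroid class had 1 rise and 1 fall among 5 genes, the retinoid class 0 and 0 among 6, the thyroid hormone and vitamin D class 0 and 1 among 3, the metabolic class 0 and 2 among 5, and the orphan class 6 and 2 among 20. Of the 7 rises, 6 were in the orphan class, which holds 20 of the 39 genes. Rises made up 30% of the orphan class, against 12.4% of all genes, and falls 10%, against 15.6%. Median log2 fold changes were 0.03 (steroid), -0.16 (retinoid), -0.39 (thyroid hormone and vitamin D), -0.33 (metabolic) and -0.10 (orphan). These are descriptions of small classes, and a difference between classes was not tested. When either vehicle array was left out, the orphan class had 3 rises and 1 fall, and the thyroid hormone and vitamin D class had 0 falls in both fits. Without vehicle replicate 2 the metabolic class had 1 fall, and without 5aza replicate 1 the orphan class had 4.

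**Figure D2:**
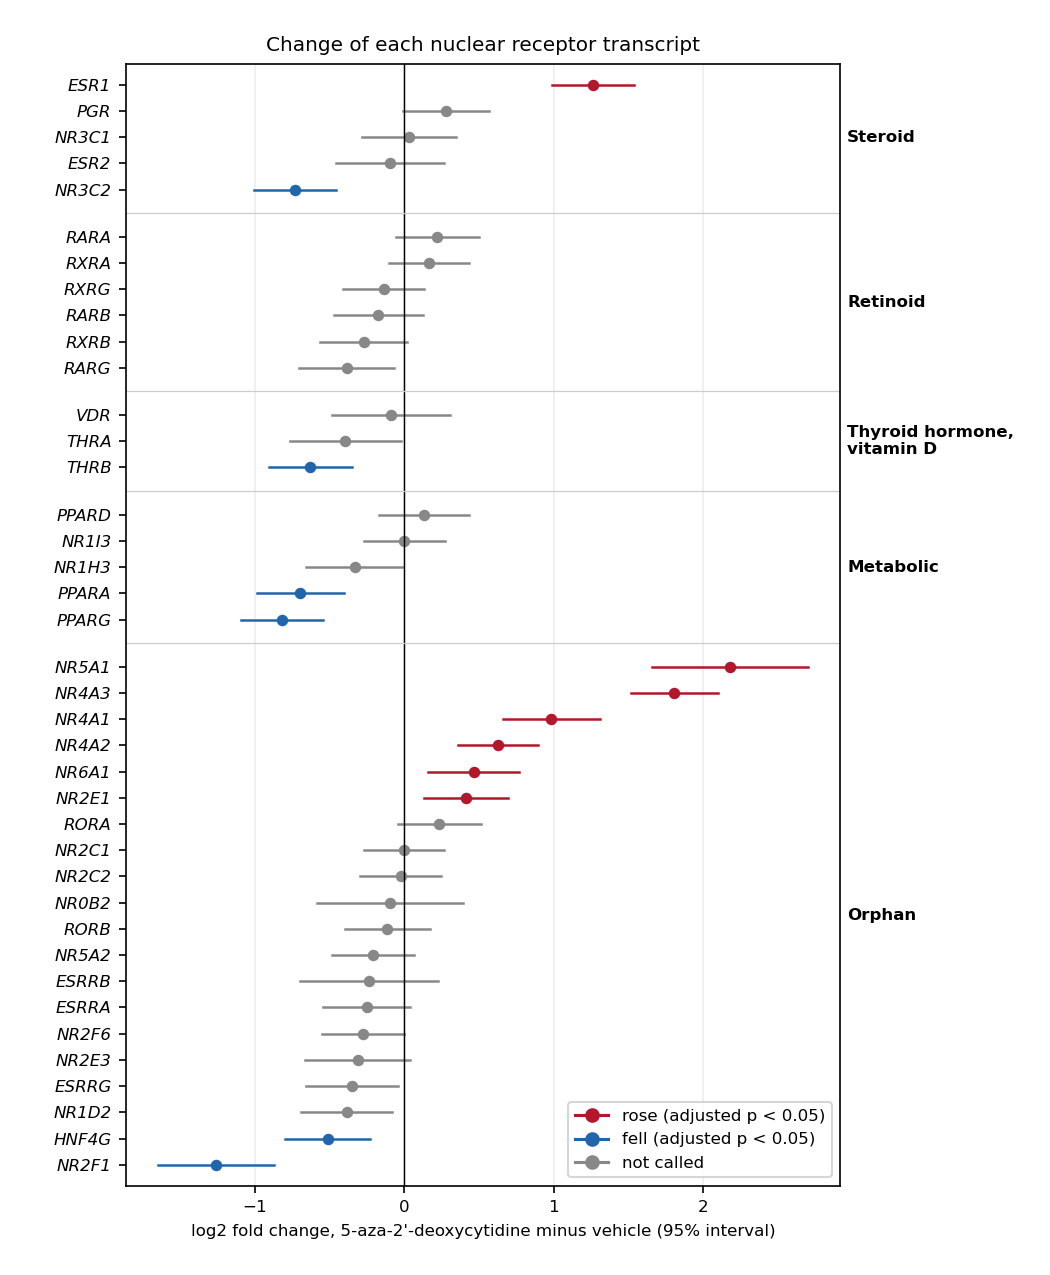
Log2 fold change of each nuclear receptor gene, 5aza minus vehicle, with limma's 95% interval, grouped by class. Rises (red) lie mostly in the orphan class, the largest, from NR2E1 at 0.41 to NR5A1 at 2.18. All 6 retinoid receptors (grey) lie between -0.39 and 0.22.

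Among the steroid receptors, ESR1 and the mineralocorticoid receptor gene NR3C2 moved in opposite directions. ESR1, which encodes oestrogen receptor alpha, had levels of 6.35 and 6.25 on the 5aza arrays and of 5.02 and 5.06 on the vehicle arrays. Both 5aza arrays lay above both vehicle arrays, and the gene rose 2.40-fold (log2 fold change 1.26, SE 0.12, limma adjusted p = 0.000458). A second probe set that names ESR1 alone gave 3.05 and 3.02 on the 5aza arrays and 3.05 and 3.02 on the vehicle arrays. Its log2 fold change was -5.69e-05, so the rise of ESR1 rests on 1 of its 2 probe sets. That second probe set was at a low level on every array, where RMA compresses folds, so its lack of change says little. Which exons the probe sets cover is not stated in the files.

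NR3C2 had levels of 4.88 and 4.94 on the 5aza arrays and of 5.60 and 5.68 on the vehicle arrays. The groups did not overlap, and it fell 1.66-fold (log2 fold change -0.73, SE 0.12, adjusted p = 0.00462). The remaining steroid receptors were not called. NR3C1, the glucocorticoid receptor gene, had 7.89 and 7.63 on the 5aza arrays and 7.72 and 7.74 on the vehicle arrays, with a 95% interval of the log2 fold change from -0.28 to 0.35. ESR2, which encodes oestrogen receptor beta, had an interval from -0.46 to 0.27, and PGR, the progesterone receptor gene and a known target of oestrogen receptors, had levels of 4.24 and 4.27 with 5aza and of 3.90 and 4.06 with vehicle (interval -0.01 to 0.56).

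None of the 6 retinoid receptors was called, in a comparison where 28.0% of genes were. With 6 genes, 0 calls cannot be set apart from that share. At an unadjusted p under 0.05, 0 were higher and 1 was lower, against 16.6% and 23.0% of all genes. With the replicate number as a block 0 rose and 1 fell. In all 6 the 5aza and vehicle levels lay apart with no overlap (100%, against 65.8% of all genes). RARB and RXRG lay among the dimmest 33.3% of genes, of which 17.3% were called. RARB, the retinoic acid receptor beta gene and a known methylation marker, had levels of 3.78 and 3.86 on the 5aza arrays and of 4.09 and 3.90 on the vehicle arrays. Its interval, from -0.47 to 0.12 on the log2 scale, leaves out a rise of the size seen for ESR1 on this scale, although folds of genes near background are compressed by RMA and the table has no detection calls. RARA, the alpha receptor gene, had 7.56 and 7.69 with 5aza and 7.42 and 7.39 with vehicle (log2 fold change 0.22, interval -0.06 to 0.50).

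RARG, the gamma receptor gene, had 7.95 and 8.20 on the 5aza arrays and 8.41 and 8.52 on the vehicle arrays. The groups did not overlap, and the log2 fold change was -0.39 (SE 0.13, adjusted p = 0.0742); without 5aza replicate 2 it was -0.51 and passed (adjusted p = 0.0310, alternatives 0.0290 to 0.371). Of the retinoid X receptors, which serve as shared dimer partners, RXRA had 9.59 and 9.65 with 5aza and 9.46 and 9.45 with vehicle. Log2 fold changes of the 3 retinoid X receptor genes were 0.16 (RXRA), -0.27 (RXRB) and -0.14 (RXRG). The 3 probe sets of RXRB gave -0.27 to -0.29. Their levels were near-equal on each array, so they may not be independent measurements.

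Among the thyroid hormone and vitamin D receptors, THRB, which encodes thyroid hormone receptor beta, fell. Its levels were 6.33 and 6.21 on the 5aza arrays and 6.90 and 6.91 on the vehicle arrays, a 1.55-fold fall without overlap (log2 fold change -0.63, SE 0.12, adjusted p = 0.00831). Leaving out vehicle replicate 1, the value was -0.64 (adjusted p = 0.0686) and without vehicle replicate 2 it was -0.62 (adjusted p = 0.0709), with alternatives between 0.00321 and 0.0709. THRA, the alpha receptor gene, had 8.87 and 9.21 on the 5aza arrays and 9.32 and 9.55 on the vehicle arrays. It was not called (log2 fold change -0.39, SE 0.16, adjusted p = 0.109); without 5aza replicate 2 it passed at -0.56 (adjusted p = 0.0350, range 0.0257 to 0.489). VDR, the vitamin D receptor gene, had 7.80 and 8.15 with 5aza and 7.91 and 8.21 with vehicle, overlapping groups with an interval from -0.48 to 0.31.

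Of the metabolic receptors, 2 of the 3 peroxisome proliferator-activated receptor genes fell. PPARG, a fatty acid sensor known for adipocyte differentiation and expressed in colonic epithelium, had levels of 9.11 and 9.07 on the 5aza arrays and of 9.86 and 9.95 on the vehicle arrays. It fell 1.76-fold (log2 fold change -0.82, SE 0.12, adjusted p = 0.00288) and was called under all 10 alternatives. PPARG has 1 probe set, so the alternatives with the lowest probe set and without the dimmest genes reuse its values and add little. PPARA, a regulator of fatty acid oxidation, had levels of 7.33 and 7.21 with 5aza and of 7.90 and 8.03 with vehicle, a 1.62-fold fall (log2 fold change -0.70, SE 0.12, adjusted p = 0.00675). Both falls were without overlap; that of PPARA was not called without vehicle replicate 2 (log2 fold change -0.63, adjusted p = 0.0674, range 0.00253 to 0.0674).

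PPARD, the delta member and a broadly expressed fatty acid sensor, had 9.08 and 9.30 on the 5aza arrays and 9.07 and 9.04 on the vehicle arrays, with an interval from -0.17 to 0.43. NR1H3, the liver X receptor alpha gene, an oxysterol sensor, had 6.86 and 7.03 with 5aza and 7.16 and 7.39 with vehicle (log2 fold change -0.33, adjusted p = 0.118). NR1I3, the constitutive androstane receptor gene and a xenobiotic sensor, had a mean of 3.87 in both groups.

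In the orphan class the largest rise was of NR5A1, the gene of a factor that directs steroid hormone synthesis and gonad and adrenal development. Its levels were 6.94 and 7.58 on the 5aza arrays and 4.94 and 5.22 on the vehicle arrays. The 5aza arrays differed from each other by more than the vehicle arrays did, yet both lay above both vehicle arrays. The rise was 4.53-fold (log2 fold change 2.18, SE 0.22, adjusted p = 0.000670), rank 299 from the top among 17958 genes, and was called under all 10 alternatives. NR5A2, its close relative and a regulator of intestinal and liver genes, had 7.30 and 7.20 with 5aza and 7.44 and 7.47 with vehicle (interval -0.48 to 0.07).

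NR6A1, the germ cell nuclear factor gene, known as a repressor of pluripotency genes, lies next to NR5A1 on chromosome 9 among the tested genes. It had 7.37 and 7.52 on the 5aza arrays and 7.07 and 6.89 on the vehicle arrays, a 1.38-fold rise (log2 fold change 0.46, SE 0.13, adjusted p = 0.0365). The call was lost without vehicle replicate 1 (0.56, adjusted p = 0.109), without vehicle replicate 2 (0.37, adjusted p = 0.288), without 5aza replicate 2 (0.39, adjusted p = 0.0837) and with housekeeping centring (0.52, adjusted p = 0.0770), in a range of 0.0205 to 0.288. The other neighbour of NR5A1, ADGRD2, had a log2 fold change of 0.33 and was not called.

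The 250 bases before the RefSeq start of NR5A1 (GRCh38.p14, chr9:124507400-124507649, minus strand) are shown because this gene changed most, with each CpG, the dinucleotide that DNA methyltransferases act on, in capitals.
NR5A1: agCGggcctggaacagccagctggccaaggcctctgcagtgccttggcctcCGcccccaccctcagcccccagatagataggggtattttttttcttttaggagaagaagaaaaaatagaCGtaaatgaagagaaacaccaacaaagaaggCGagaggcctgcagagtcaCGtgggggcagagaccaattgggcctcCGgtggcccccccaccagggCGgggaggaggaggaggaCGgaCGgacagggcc
They hold 9 CpG. The same stretch of NR2F1, the receptor gene that fell most (chr5:93582972-93583221, plus strand), holds 8, also in capitals.
NR2F1: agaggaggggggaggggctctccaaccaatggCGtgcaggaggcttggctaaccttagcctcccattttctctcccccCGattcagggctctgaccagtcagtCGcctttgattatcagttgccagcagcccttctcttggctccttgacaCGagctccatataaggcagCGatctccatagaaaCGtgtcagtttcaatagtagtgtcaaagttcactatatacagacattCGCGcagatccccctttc

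NR2F1 encodes a COUP transcription factor, which binds the same direct repeats as retinoid receptors and often acts as a repressor. Its levels were 8.28 and 8.71 on the 5aza arrays and 9.78 and 9.73 on the vehicle arrays. The groups were more than 1 unit apart, and the fall was 2.39-fold (log2 fold change -1.26, SE 0.16, adjusted p = 0.00202), rank 175 from the bottom. It was called under all 10 alternatives. NR2F6, another member of the COUP subfamily, had 9.70 and 9.78 with 5aza and 10.04 and 9.99 with vehicle, without overlap and not called (log2 fold change -0.28, adjusted p = 0.122).

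All 3 members of the NR4A subfamily rose. These receptors are immediate-early genes, switched on quickly by growth factors, stress and cyclic AMP signals, and act without a classical ligand. NR4A3 had levels of 7.08 and 7.22 on the 5aza arrays and of 5.40 and 5.28 on the vehicle arrays, a 3.50-fold rise (log2 fold change 1.81, SE 0.12, adjusted p = 0.000124). NR4A1 had 8.32 and 8.60 with 5aza and 7.44 and 7.51 with vehicle, a 1.98-fold rise (log2 fold change 0.98, SE 0.14, adjusted p = 0.00271). Both were called under all 10 alternatives.

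NR4A2, known for its role in dopaminergic neurons, had 9.34 and 9.37 on the 5aza arrays and 8.75 and 8.71 on the vehicle arrays, a 1.54-fold rise (log2 fold change 0.63, SE 0.11, adjusted p = 0.00742). Its call was lost without vehicle replicate 1 (0.64, adjusted p = 0.0621) and without vehicle replicate 2 (0.61, adjusted p = 0.0729), in a range of 0.00302 to 0.0729. The groups did not overlap for any of the 3 genes.

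Cyclic AMP response elements, bound by CREB, are built on the motif TGACG, and RefSeq start windows (250 bases before to 50 after a start) were searched for it on both strands. The window of NR4A3 held 4 matches, a number reached or passed by 110 of 35116 windows of all genes (0.313%), while 24.6% held at least 1. Of the 96 windows of receptor genes, 21.9% held at least 1. Both windows of NR4A1 held 0, and NR4A2 had no window to search. The window of NR6A1 held 2 overlapping matches, which form the palindrome TGACGTCA present in 1.85% of all windows; that of NR2E1 with this palindrome was the only other among the receptor windows. For PGR, PPARD and NR1D2, none of them called, at least 1 window also held 2 matches. A match is a description of letters and not a binding site. The upstream 250 bases of NR4A3 (GRCh38.p14, chr9:99821635-99821884, plus strand) and of NR6A1 (chr9:124771312-124771561, minus strand) are shown for these matches, shown in capitals on whichever strand they lie.
NR4A3: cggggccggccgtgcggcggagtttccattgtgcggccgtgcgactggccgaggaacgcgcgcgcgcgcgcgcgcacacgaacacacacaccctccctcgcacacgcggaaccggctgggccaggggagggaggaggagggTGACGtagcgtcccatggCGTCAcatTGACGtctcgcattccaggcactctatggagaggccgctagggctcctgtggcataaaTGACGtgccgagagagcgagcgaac
NR6A1: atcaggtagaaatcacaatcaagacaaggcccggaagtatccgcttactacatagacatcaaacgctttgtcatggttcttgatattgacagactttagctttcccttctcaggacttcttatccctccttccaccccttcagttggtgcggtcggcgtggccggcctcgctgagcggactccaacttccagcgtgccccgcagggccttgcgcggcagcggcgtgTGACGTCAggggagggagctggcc

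The other orphan calls were small. NR2E1, which maintains neural stem cells, had 4.39 and 4.26 on the 5aza arrays and 3.89 and 3.93 on the vehicle arrays, a 1.33-fold rise from a low level (log2 fold change 0.41, SE 0.12, adjusted p = 0.0411). It was called under 4 of 9 alternatives, and not without vehicle replicate 1 (0.39, adjusted p = 0.262), vehicle replicate 2 (0.44, adjusted p = 0.203) or 5aza replicate 1 (0.34, adjusted p = 0.0760), nor with housekeeping centring (0.47, adjusted p = 0.0623) or an intensity trend (0.41, adjusted p = 0.0518), in a range of 0.0238 to 0.262. HNF4G, a regulator of enterocyte genes, had 6.40 and 6.24 with 5aza and 6.85 and 6.82 with vehicle. It fell 1.43-fold (log2 fold change -0.51, SE 0.12, adjusted p = 0.0202), but was not called without vehicle replicate 1 (-0.49, adjusted p = 0.154), without vehicle replicate 2 (-0.53, adjusted p = 0.126) or with housekeeping centring (-0.46, adjusted p = 0.0648), in a range of 0.00849 to 0.154.

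The remaining 12 orphan receptors were not called, with log2 fold changes from -0.39 to 0.23. NR1D2, a heme-binding clock repressor, had 9.65 and 9.64 on the 5aza arrays and 10.15 and 9.92 on the vehicle arrays, the lowest of these values (-0.39, adjusted p = 0.0641). It passed as lower without the dimmest genes (adjusted p = 0.0459), with an intensity trend (0.0368) and with the replicate block (0.0327), in a range of 0.0327 to 0.446. Its neighbours on chromosome 3 among the tested genes are THRB and then RARB, and all 3 had negative log2 fold changes (-0.39, -0.63 and -0.17). RORA, a clock activator, had 3.55 and 3.43 with 5aza and 3.24 and 3.27 with vehicle (log2 fold change 0.23, adjusted p = 0.190). The oestrogen-related receptors, regulators of mitochondrial genes, were -0.25 (ESRRA), -0.24 (ESRRB) and -0.35 (ESRRG). The testicular receptors NR2C1 and NR2C2 had intervals that both lay between -0.29 and 0.26. NR2E3, a photoreceptor factor, was -0.31, RORB -0.12 and NR0B2, a corepressor-like receptor without a DNA-binding domain, -0.09. Without 5aza replicate 1, NR2E3 and ESRRB passed as lower (-0.46, adjusted p = 0.0495, range 0.0495 to 0.611, and -0.51, adjusted p = 0.0443, range 0.0443 to 0.888), while without 5aza replicate 2 ESRRB was at 0.03.

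CpG content at gene starts overlapped between receptors that rose and those that fell. For the 34 tested receptors with RefSeq start windows, the CpG count of the most CpG-rich 300-base window had a median of 21 in 6 genes that rose, 35 in 5 that fell and 26 in 23 not called. Over all genes the medians were 24, 27 and 25. Spearman's rho between this count and the log2 fold change was -0.14 across the 34 receptors and 0.00 across 13864 genes, given as descriptions because genes share arrays and some have more windows than others. NR5A1 and ESR1 had 14 and 17 CpG, PPARG and NR2F1 10 and 12, and PPARA 52. No methylation was measured in this series.

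**Figure D3:**
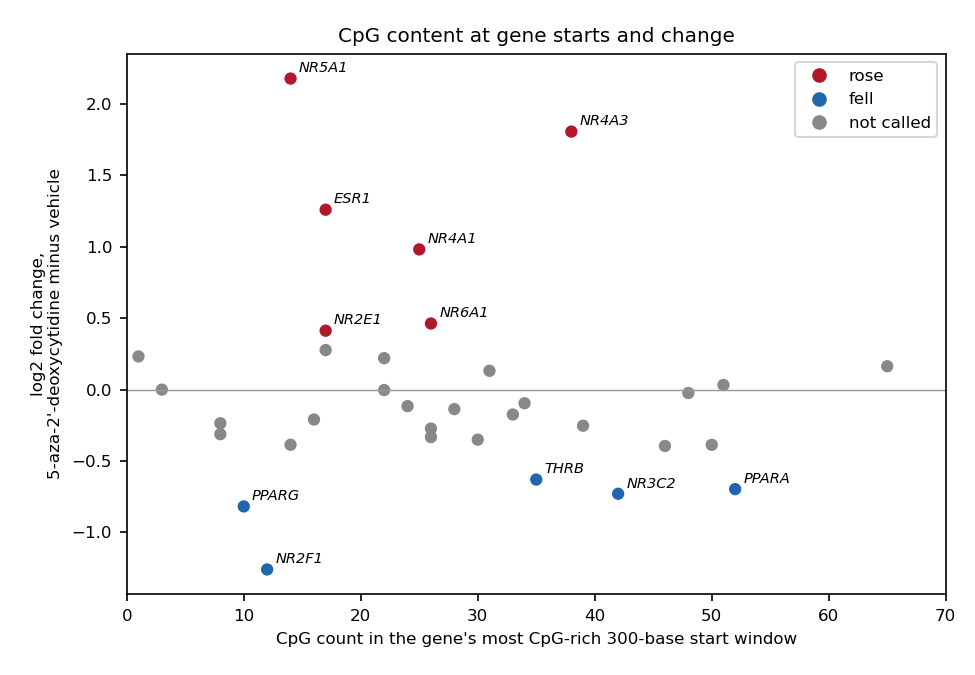
CpG count in the most CpG-rich 300-base start window (horizontal axis) against the log2 fold change, 5aza minus vehicle, for 34 receptor genes, with rises in red, falls in blue and genes not called in grey. NR5A1, ESR1, PPARG and NR2F1, at 10 to 17 CpG, moved in both directions, and RXRA at 65 CpG had a log2 fold change of 0.16.

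Coregulators, retinoid-handling genes and known receptor targets were read from 8 further lists with 111 tested genes, of which 18 rose and 12 fell, with a median log2 fold change of -0.01. These became 11 and 5 when vehicle replicate 1 was left out, 13 and 5 when vehicle replicate 2 was, and 16 and 5 with values centred on housekeeping genes. Over all genes 12.4% rose and 15.6% fell. The lists were chosen with earlier results of these data known, so setting their counts beside these shares is a description and not a test.

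Of 27 coregulators 3 were called, while 12 had an unadjusted p under 0.05, against 39.6% of all genes. Of 17 coactivators 2 rose and 0 fell (at an unadjusted p under 0.05, 4 were higher and 3 lower, and with an intensity trend 3 rose and 2 fell). They were the paralogous acetyltransferase genes EP300, at 8.69 and 8.82 on the 5aza arrays and 8.11 and 8.18 on the vehicle arrays (log2 fold change 0.61, SE 0.12, adjusted p = 0.00997), and CREBBP, at 9.87 and 10.02 with 5aza and 9.25 and 9.38 with vehicle (0.63, SE 0.12, adjusted p = 0.0106). Of 10 corepressors 0 rose and 1 fell (unadjusted, 3 higher and 2 lower; with the replicate block 2 and 1): TBL1X, a subunit of the NCOR complex, at 8.48 and 8.58 with 5aza and 9.07 and 9.20 with vehicle (-0.60, SE 0.12, adjusted p = 0.0111). With vehicle replicate 1 left out the coactivators had 0 rises, with vehicle replicate 2 left out they had 1, and the corepressors had 0 falls either way. Without 5aza replicate 1, 2 coactivators fell and 2 corepressors rose.

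Genes that carry, make or degrade retinoids were called in both directions. Of 17, 4 rose and 4 fell, with a median log2 fold change of 0.21. RBP4, the plasma retinol carrier, had 8.26 and 8.48 on the 5aza arrays and 4.03 and 4.18 on the vehicle arrays, a 19.2-fold rise (log2 fold change 4.26, SE 0.13, adjusted p = 5.56e-06). ALDH1A3, which makes retinoic acid, had 10.34 and 10.22 with 5aza and 11.54 and 11.52 with vehicle, a 2.38-fold fall (-1.25, SE 0.12, adjusted p = 0.000500). DHRS3, which returns retinaldehyde to retinol and is itself induced by retinoic acid, had 8.27 and 7.92 with 5aza and 9.75 and 9.55 with vehicle, a 2.94-fold fall (-1.56, SE 0.16, adjusted p = 0.000676). Other calls, outside the naming rule, were picked with values in view. They included rises of STRA6, a retinol transporter (1.31), RDH10, a retinol dehydrogenase (0.74), and CYP26A1, which degrades retinoic acid (0.72). They also included falls of LRAT, which esterifies retinol (-1.07), and BCO1, which cleaves beta-carotene (-0.61). BCO1 was at a low level, with means of 3.72 with 5aza and 4.33 with vehicle. Dropping either vehicle array left 3 rises with 3 falls.

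Of 13 genes known as retinoic acid targets, 4 rose and 1 fell, and 3 of these calls (STRA6, CYP26A1 and DHRS3) are also in the handling list. The transcriptional repressor gene PRDM1 had 7.08 and 6.99 on the 5aza arrays and 5.66 and 5.44 on the vehicle arrays (log2 fold change 1.48, SE 0.13, adjusted p = 0.000364), and TGM2, a transglutaminase gene, had 10.29 and 10.54 with 5aza and 8.90 and 9.07 with vehicle (1.43, SE 0.14, adjusted p = 0.000570). DHRS3 thus fell while STRA6, CYP26A1, PRDM1 and TGM2 rose.

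**Figure D4:**
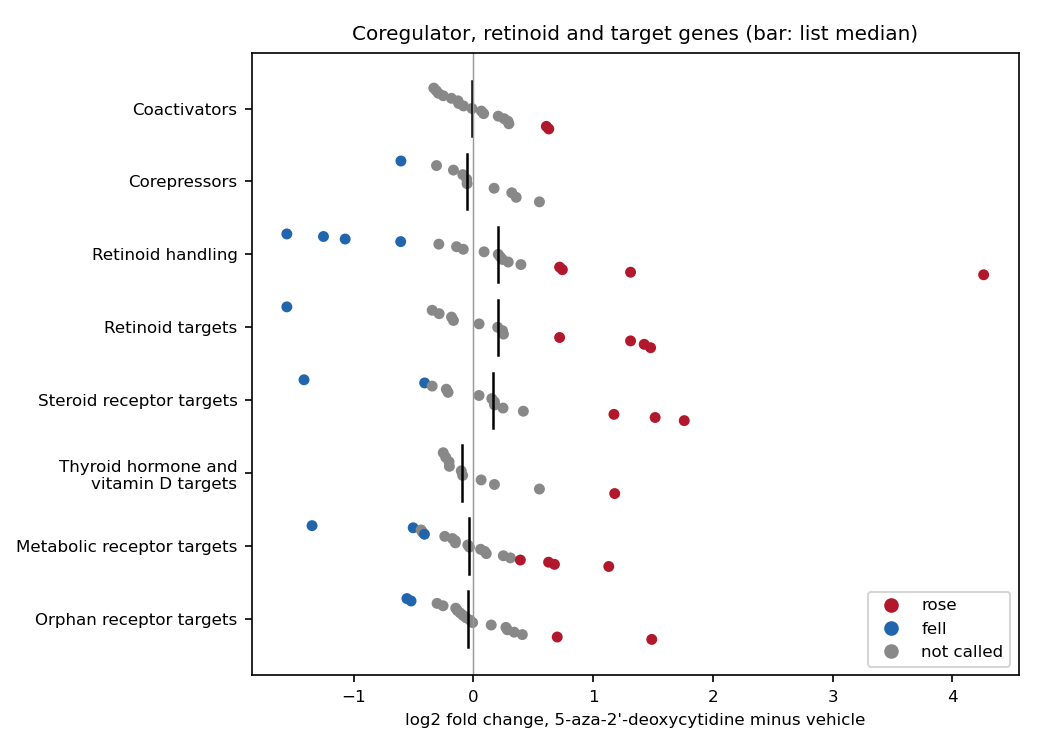
Log2 fold change, 5aza minus vehicle, of each tested gene of 8 coregulator, retinoid and receptor target lists, with rises in red, falls in blue, genes not called in grey and the list median as a black bar. All medians lie between -0.10 and 0.21, and RBP4, at 4.26 in the retinoid-handling list, stands apart from the rest.

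Steroid receptor targets included 3 rises and 2 falls among 14. DUSP1, a MAP kinase phosphatase induced by glucocorticoids and also an immediate-early gene, had 10.41 and 10.43 on the 5aza arrays and 8.97 and 8.84 on the vehicle arrays (log2 fold change 1.52, SE 0.12, adjusted p = 0.000221). IGFBP4, an oestrogen-responsive binding protein, had 7.75 and 7.94 with 5aza and 6.20 and 5.96 with vehicle (1.76, SE 0.14, adjusted p = 0.000237). SCNN1A, a sodium channel subunit and target of corticosteroid receptors, had 8.86 and 9.08 with 5aza and 10.29 and 10.47 with vehicle (-1.41, SE 0.14, adjusted p = 0.000556). SGK1, a kinase also induced by corticosteroids, rose (1.17) and PDZK1, an oestrogen-responsive scaffold, fell (-0.41), both named after their values were seen. PDZK1 was at a low level, with means of 3.35 with 5aza and 3.76 with vehicle. The oestrogen targets GREB1 and TFF1, set beside ESR1 and likewise named after their values were seen, had -0.23 and 0.25 and were not called. There was 1 fall with either vehicle array or 5aza replicate 1 left out.

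Among 20 targets of the metabolic receptors 4 rose and 3 fell. PDK4, a peroxisome proliferator-activated receptor target that restrains glucose oxidation, had 6.81 and 6.41 on the 5aza arrays and 7.97 and 7.95 on the vehicle arrays (log2 fold change -1.35, SE 0.15, adjusted p = 0.00123). ANGPTL4, a lipoprotein lipase inhibitor and target of the same receptors, had 8.55 and 9.05 with 5aza and 7.45 and 7.89 with vehicle (1.13, SE 0.21, adjusted p = 0.00878). PLIN2, a lipid droplet coat gene, had 10.04 and 9.63 with 5aza and 9.24 and 9.08 with vehicle (0.68, SE 0.16, adjusted p = 0.0222). Known targets of the receptors PPARA and PPARG, both of which fell, thus moved in both directions. Rises of ABCB1, a drug efflux pump (0.63), and FGF19, an enterokine (0.39), and falls of MYLIP, a ligase for the LDL receptor (-0.50), and SCD, a fatty acid desaturase (-0.41), were named after their values were seen. Dropping either vehicle array left 1 rise with 1 fall, and without 5aza replicate 1 there were 2 falls.

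Of 10 targets of thyroid hormone and vitamin D receptors 1 rose and 0 fell (unadjusted, 2 higher and 0 lower; with the replicate block 2 and 0). The rise was of CD14, a monocyte co-receptor gene that is also in the leukocyte list, at 5.74 and 5.51 with 5aza and 4.42 and 4.47 with vehicle (log2 fold change 1.18, SE 0.13, adjusted p = 0.000981). CYP24A1, the vitamin D-degrading enzyme and main VDR target, named after its values were seen, had 11.83 and 11.72 with 5aza and 11.86 and 11.88 with vehicle and was not called. Without 5aza replicate 1 the list had 2 rises, and without 5aza replicate 2 it had 1 fall.

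Of 18 targets of orphan receptors 2 rose and 2 fell. CYP11A1, the first enzyme of steroid hormone synthesis and a known NR5A1 target, had 6.81 and 7.04 on the 5aza arrays and 5.63 and 5.23 on the vehicle arrays, a 2.81-fold rise (log2 fold change 1.49, SE 0.17, adjusted p = 0.00113). STAR and CYP19A1, other known NR5A1 targets named after their values were seen, had -0.06 and 0.28 and were not called. TTR, a transthyretin gene controlled by HNF4 factors in liver, had 3.32 and 3.33 with 5aza and 3.77 and 3.99 with vehicle (-0.55, SE 0.13, adjusted p = 0.0181). TTR was thus at a low level in both groups. CDX2, an intestinal homeobox gene, had 8.40 and 8.84 with 5aza and 7.73 and 8.11 with vehicle (0.70, SE 0.19, adjusted p = 0.0344), and IDH3A, named after its value was seen, fell (-0.52). The list had 1 rise and 0 falls without vehicle replicate 1; without vehicle replicate 2 it had 0 falls, and without 5aza replicate 2 it had 3 rises and 1 fall.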

How the data were processed

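RNA from 2 5aza arrays and 2 vehicle arrays was measured on Affymetrix arrays. The deposited log2 values were made by the authors with RMA in Affymetrix Expression Console, per the submitters' processing notes, with versions and probe set definitions not given in the sources used here. RMA corrects background, quantile-normalizes and summarizes probes, which compresses folds near background and hides shifts common to most genes.

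Of 33297 probe sets, 19181 had 1 gene symbol in the platform annotation, 2055 had several and 12061 had none. The probe set with the highest mean per symbol gave 17958 genes, fitted with limma 3.58.1 (lmFit and eBayes, R 4.3.3) as 5aza minus vehicle with Benjamini-Hochberg adjustment. Only 4 arrays limit the precision, with a median SE of 0.13. In simulated data with 200 changed genes a run, the fit called 2.4% of log2 changes of 0.5 and 77.6% of log2 changes of 1. It called 0.0496% of unchanged genes. In the real comparison 5023 genes were called, so these shares need not carry over.

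Named genes were every called member, the member of each class with the highest vehicle level, relatives of these, other members by range or count, and up to 3 called genes per list by smallest p. Members and lists were chosen with earlier results of these data known. Promoter windows of 300 bases and their sequences are from RefSeq (GRCh38.p14), and 34 tested members had one. Alternatives were repeated quantile normalization, housekeeping centring, a filter on the dimmest 33.3% of genes, an intensity trend, the lowest probe set, the replicate number as a block, and leaving out each array. For the 37 members with 1 probe set, the lowest probe set is the one already used. The dim filter leaves the values of each kept gene unchanged. Calls kept under these alternatives therefore add little. Alternatives for the lists, classes and CpG content were chosen after seeing the data.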

Additional observations from a re-analysis of the deposited data

How the results depend on the processing

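Precision is limited by 2 arrays a group. Over the fits that left out 1 array each, the counts were 1267 to 2530 rises and 1196 to 3401 falls among all genes (2229 and 2794 with all arrays), 4 to 6 rises and 3 to 8 falls among receptors (7 and 6) and 11 to 22 rises and 5 to 12 falls among the listed genes (18 and 12). The rho of the receptors with CpG content ranged from -0.201 to -0.0557 (-0.14 with all arrays), with the highest value without 5aza replicate 1. Housekeeping centring takes out the list's median shift of -0.05 and so raises each log2 fold change by 0.05. With it, all genes had 1782 falls and the listed genes 5, while the receptors had 5 rises and 5 falls. With the replicate block 7 receptors rose and 11 fell. The labels do not say that a number marks a shared culture, and same-numbered arrays' deviations correlated at 0.27 over 17958 genes. What same-numbered arrays share besides the number is not stated, and the block's calls were not read as stronger effects. Repeated quantile normalization kept all 13 receptor calls, and the dim filter kept the 11 still tested and added NR1D2. The rho between CpG content and fold change was -0.01 (-0.0136) without the dimmest genes. Signs turned in the following values, and no value with a turned sign was called. ESR1 had -5.69e-05 with its lowest probe set, which was at a low level on every array. With 1 array left out, log2 fold changes ranged on both sides of 0: -0.28 to 0.0944 for ESR2, -0.0953 to 0.16 for NR3C1, -0.26 to 0.0844 for VDR, -0.0147 to 0.00902 for NR2C1, -0.0584 to 0.0112 for NR2C2, -0.51 to 0.034 for ESRRB and -0.35 to 0.16 for NR0B2. NR2C1 had 0.0701 with repeated quantile normalization and 0.0510 with centring, and NR2C2 had 0.0341 and 0.0303. The cause was not tested.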

Other observations

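The nearest tested gene on each side of the 13 called receptor genes, by RefSeq order, gave 22 genes that are no members. Of these, 8 were called (36.4%, against 28.0% of all genes), 5 in the direction of the receptor and 3 in the opposite direction. Both neighbours of NR4A1 rose, TAMALIN with a log2 fold change of 0.60 and ATG101 with 0.61. Next to NR4A3, SEC61B rose (0.47) and STX17 fell (-0.66). Beside NR4A2, which rose, GPD2 fell (-0.82). CDPF1 fell beside PPARA (-0.68) and DCLK2 beside NR3C2 (-0.67). CRISPLD1, next to HNF4G, which fell, rose 2.50 on the log2 scale. Neither neighbour of ESR1 (CCDC170 and SYNE1), PPARG (TIMP4 and MKRN2), NR2F1 (ARRDC3 and POU5F2) or NR2E1 (OSTM1 and SNX3) was called. All these neighbours were named after their values were seen.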
